A study of Homo sapiens with 4 samples.

Results

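Peaks of SAF-A CLIP-seq were followed in 7 large protein-coding genes of HCT116 cells, an established human colorectal carcinoma line: FASN, PLEC, DYNC1H1, CENPF, SNRNP200, AHNAK and SPTAN1. A peak was a member when its midpoint lay in a gene's span on the gene's strand. By this rule 311 of the 278959 peaks in the 4 deposited lists were members. Input replicates 1 and 2 supplied 108 of 29386 and 142 of 42256 listed peaks, and pull-down replicates 1 and 2 supplied 31 of 96061 and 30 of 111256. The genes were selected on their peak counts in pull-down against input, since the stretches holding CENPF, SNRNP200 and PLEC had already been seen to be poor in pull-down peaks. That contrast is therefore described here without a test.

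All 4 libraries came from HCT116 cells with wild-type SAF-A, irradiated with ultraviolet light to fix protein to RNA. The lysate was split into input and immunoprecipitation with 1 monoclonal SAF-A antibody, and in both cases RNA was taken from the membrane at the size of SAF-A and slightly above, so that the inputs give the background of that membrane region. There were 2 libraries of each kind, which the labels do not say came from separate cultures. The lists give positions and a score of unstated meaning, not reads, so read depth is unknown and the number of peaks is limited both by depth and by how strongly an RNA was represented.

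SAF-A, also called hnRNP U, is an abundant nuclear protein that binds RNA and DNA and is known for its part in nuclear organisation and in the handling of nascent transcripts. A spliced mRNA, in contrast, is exported and spends most of its life on ribosomes in the cytoplasm. The 7 genes encode very large proteins that dividing epithelial cells use for lipid synthesis, the cytoskeleton, transport, chromosome segregation and splicing, and their mature mRNAs are dominated by coding sequence.

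The label of long transcripts was only partly borne out by the genomic spans. AHNAK spans 113.317 kb, DYNC1H1 86.265 kb, SPTAN1 81.108 kb, PLEC 61.593 kb, CENPF 61.383 kb, SNRNP200 31.234 kb and FASN 19.893 kb. Among 20056 protein-coding genes of RefSeq (GRCh38.p14), whose median span was 24.1 kb, these genes lay between percentile 44.9 for FASN and percentile 85.5 for AHNAK. FASN is thus a compact gene by span. Lengths of mature mRNAs were not analysed here.

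Peaks in these spans lay almost entirely on the gene's strand. Of 328 peaks on either strand, 311 (94.8%) were sense and 17 were opposite. At the positions that the same 7 genes have in GRCh38, the lists held only 32 sense peaks and 25 opposite ones, so positions are given as GRCh37 throughout.

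In all 7 genes the share of listed peaks was smaller in each pull-down than in either input, although the pull-down lists were longer. Together they took 36.8 and 33.6 per 10000 input peaks, as against 3.23 and 2.70 per 10000 pull-down peaks. The means were 35.2 ± 2.2 and 2.96 ± 0.38 (SD, n = 2 each), an 11.9-fold difference. Summed over libraries, 250 input peaks stood against 61 pull-down peaks, a ratio of shares of 11.9 (95% exact interval 8.93 to 16.0, counting error only). This interval treats peaks as separate draws, does not allow for the choice of the genes and is no test of the contrast. The log2 ratio of pull-down over input was -3.56 with 0.5 added to each count. It was -5.03 in lists cut by score to the length of input replicate 1, which was kept whole. That cut sets a higher score limit in the pull-downs, where the peaks of the genes had median scores of only 11 and 13. Most of them were lost, so the value is not a match for depth. The log2 ratio was -4.04 among peaks narrower than 50 bases and -2.74 among peaks of at least 50 bases, each as a share of the listed peaks of that width. With narrow peaks alone, 4 of the 7 genes were lower in both pull-downs, and 5 of the 7 when each list kept its 50% of best scores. In that better-scoring part, CENPF and SNRNP200 kept 0 peaks in input replicate 1 and 0 in each pull-down. No genome-wide share was computed at these settings, so these counts are not read as a result about the genes.

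**Figure D1:**
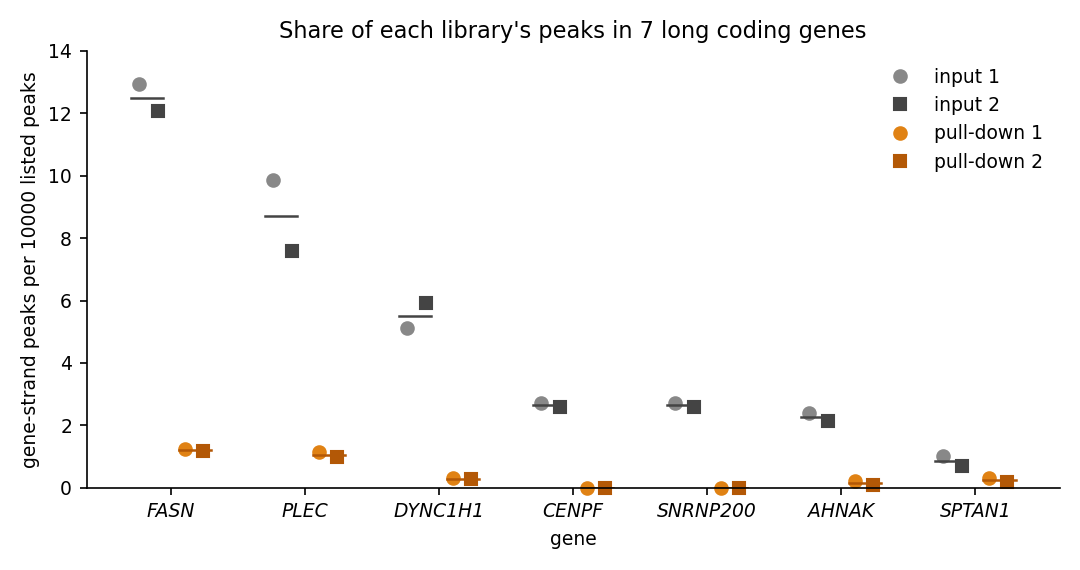
Peaks on the gene strand per 10000 listed peaks (y axis, linear) for each gene (x axis); points are the 4 libraries and short lines the means of 2. In every gene both pull-down points lie below both input points, from FASN, with input shares of 12.9 and 12.1, to SPTAN1, with 1.02 and 0.71.

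A lower share in both pull-downs was common across the genome. Among 3226 windows of 100 kb on 1 strand with a mean of at least 0.5 peaks per 10000 over the 4 libraries, 60.4% had both pull-down shares below both input shares and 12.1% had both above. The order of the groups is therefore read against that 60.4%. The sizes of the differences were as follows. The median log2 ratio was -3.68 over the 7 genes, or -3.19 with the 2 genes without pull-down peaks taken at their bound, against -0.84 over the windows. Of the windows, 1.98% had a ratio at or below the first of these medians and 3.38% at or below the second. With a minimum mean of 1 peak per 10000, which left 597 windows, these shares were 4.52% and 7.87%. The least extreme gene, SPTAN1, had a ratio of -1.80, which 18.7% of windows reached, and 40.9% of those with the higher minimum. Windows and gene spans differ in length, and the minimum passes windows with a few input peaks more readily, because 1 peak is a larger share of a shorter list.

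**Figure D2:**
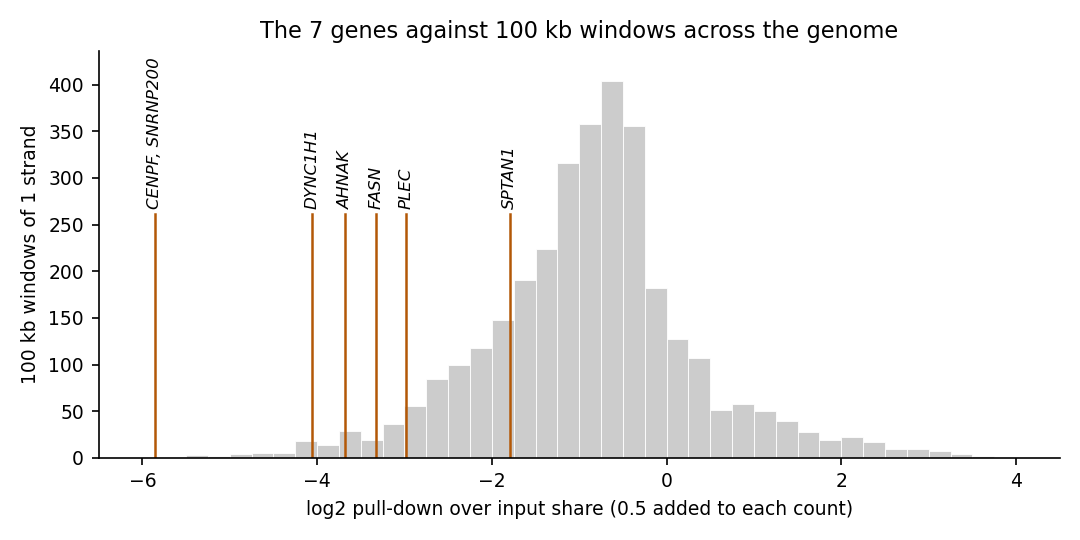
Distribution of the log2 ratio of pull-down over input share (x axis, 0.5 added to each count) over 3226 windows of 100 kb on 1 strand (y axis, number of windows), with the 7 genes as vertical lines. Most windows lie near the median of -0.84, and the genes lie from -1.80 (SPTAN1) downward; the position of CENPF and SNRNP200, with 0 pull-down peaks, is set by the added 0.5.

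Both inputs gave the genes the same order. FASN led with 12.5 ± 0.6 peaks per 10000 (SD, n = 2), followed by PLEC with 8.72 ± 1.62 and DYNC1H1 with 5.51 ± 0.57. CENPF and SNRNP200 had the same numbers of peaks, with 2.66 ± 0.08 each, AHNAK had 2.26 ± 0.18 and SPTAN1 0.87 ± 0.22. The 2 input values did not overlap between neighbours in this order, CENPF and SNRNP200 excepted. The gap between these 2 genes and AHNAK was 1 peak in replicate 1 and 2 peaks in replicate 2, within counting error. Per 10 kb of span, FASN was the densest, with an input share of 6.28 per 10000, and SPTAN1 the sparsest, with 0.11.

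FASN encodes fatty acid synthase, the enzyme that builds palmitate from acetyl and malonyl units. The inputs listed 38 and 51 peaks in it, the pull-downs 12 and 13. These were 12.9 and 12.1 per 10000 input peaks against 1.25 and 1.17 per 10000 pull-down peaks, a 10.3-fold difference of means, and the groups did not overlap. Its log2 ratio of -3.33 became -5.42 in lists cut by score to equal length and -1.20 among wide peaks as a share of all wide peaks. FASN differed from most of the others in its widths: of its 89 input peaks only 13 were at least 50 bases wide. Narrow peaks numbered 32 and 44 in input libraries against 6 and 7 in pull-down libraries, a 16.99-fold difference in share. Wide ones numbered 6 and 7 against 6 and 6, a 3.18-fold difference. These folds by width are shares of the whole list, on which wide peaks of the genome were 1.37-fold and narrow ones 0.92-fold as frequent in the inputs.

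FASN peaks merged into 58 sites spread from one end of the gene to the other. Both inputs without a pull-down accounted for 18 sites, a single input for 21, and all 4 libraries for 5. The best-ranked of the 5 lay at the 5′ end of the span (chr17:80056014-80056112, minus strand), with input scores of 48 and 74 and pull-down scores of 27 and 33. The best input sites with no pull-down peak were chr17:80050834-80050885, with input scores of 30 and 33, and chr17:80044333-80044419, with 21 and 47. Every one of the 13 FASN peaks of pull-down replicate 2 overlapped an input peak, as did 9 of the 12 of replicate 1.

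PLEC encodes plectin, a giant linker that ties intermediate filaments to other parts of the cytoskeleton and to cell junctions. It held 29 and 32 input peaks against 11 in each pull-down, or 9.87 and 7.57 against 1.15 and 0.99 per 10000. The groups did not overlap, and the means differed 8.17-fold. As in FASN, narrow peaks differed more than wide ones: as shares of the whole list, narrow peaks were 15.7-fold and wide ones 3.85-fold higher in the inputs. Wide peaks numbered 7 and 12 in the input lists against 7 in each pull-down list.

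Input peaks of PLEC were concentrated toward the 3′ end, with 59 of 61 beyond the midpoint of the span and 19 in the last 10%. Of the 22 pull-down peaks, 19 lay beyond the midpoint and 3 in the last 10%. The gene had 56 sites, 9 in both inputs without a pull-down and 2 in all 4 libraries. The stronger of these 2, chr8:145001784-145001907 on the minus strand, had input scores of 47 and 55 and pull-down scores of 38 and 33. The best input site free of pull-down peaks was chr8:144996298-144996371, with a score of 34 in each input, and the next was chr8:145006971-145007008, with 20 in each. PLEC also held 1 of the 3 sites found in both pull-downs and no input, chr8:144997799-144997855, whose scores of 13 and 10 are close to the lowest value listed.

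DYNC1H1 encodes the heavy chain of cytoplasmic dynein, the motor that walks toward microtubule minus ends. It held 15 and 25 input peaks against 3 in each pull-down, or 5.10 and 5.92 against 0.31 and 0.27 per 10000. The means differed 18.9-fold. The 95% interval of the ratio, from the summed counts, ran from 8.13 to 55.7. Wide peaks made up 32 of its 40 input peaks, and here the wide share differed more than the narrow one, 29.6-fold against 7.76-fold. The narrow value rests on 3 pull-down peaks.

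The 30 sites of DYNC1H1 were strung along the whole span, and were 13 to 226 bases long. Of these, 9 were in both inputs and no pull-down, 16 in 1 input alone. The best-ranked of the 9 were chr14:102449723-102449881, with scores of 23 and 44, and chr14:102516969-102517108 at the very 3′ end, with 17 and 41. One site stood apart: a narrow site of 40 bases, chr14:102492408-102492447 on the plus strand, was listed in all 4 libraries with input scores of 82 and 68 and pull-down scores of 54 and 154. These were the highest score of any member peak in input replicate 1 and in both pull-downs.

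CENPF encodes centromere protein F, a large coiled-coil protein that gathers at kinetochores in mitosis. The input lists held 8 and 11 peaks in it, and both pull-down lists held 0. The input share was 2.72 and 2.60 per 10000, at least 9.15-fold higher than the 3 peaks per pull-down library that a count of 0 allows. All 19 input peaks were wide. They formed 13 sites, the first of them 17.3% of the way along the gene, and 13 of the 19 peaks lay beyond its midpoint. The 6 sites found in both inputs included chr1:214813424-214813605 (plus strand, scores of 11 and 18) and chr1:214795428-214795620 (11 and 17).

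SNRNP200 encodes the Brr2 helicase, which unwinds paired snRNAs when the spliceosome is activated. Its numbers equalled those of CENPF: 8 and 11 input peaks, 0 in either pull-down, and the same bound of at least 9.15-fold. Of its 19 input peaks 17 were wide. The 15 sites ran from 2.49% to 97.9% of the span, with 10 peaks before the midpoint and 9 beyond it. The 4 sites shared by both inputs included chr2:96952127-96952217 (minus strand, scores of 15 and 17) and chr2:96967289-96967454 (11 and 24). Among the 3226 windows that passed the minimum mean share, 10 (0.31%) were listed in both inputs with 0 pull-down peaks. CENPF and SNRNP200 were among the genes picked for that pattern. The windows, of 100 kb, are longer than either gene span and were not matched to it. Their share therefore does not show how rare the pattern is among spans of this length.

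AHNAK encodes a giant scaffold protein built of many repeats and found at the plasma membrane. It held 7 and 9 input peaks against 2 and 1 pull-down peaks, or 2.38 and 2.13 against 0.21 and 0.09 per 10000. The ratio of summed shares was 15.4, with a 95% interval of 4.42 to 82.7 that reflects the 3 pull-down peaks. All 16 input peaks lay in the first 27.3% of the span, and 14 of them within a stretch of 20.6 kb; the last 82.4 kb of the span held none. The remaining site lay at the 5′ end (chr11:62314139-62314303, minus strand), with scores of 25 and 24. The best-ranked site without a pull-down peak was chr11:62303946-62304040, with 26 and 24.

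The pull-down peaks of AHNAK lay elsewhere. One site, chr11:62233975-62234101, was listed in both pull-downs with scores of 22 and 20 and in no input. It lay 70.9% along the span, in the part without input peaks. No transcript annotation was used, so where single AHNAK transcripts end within the span was not analysed. The third pull-down peak, in replicate 1 alone, also overlapped no input peak.

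SPTAN1 encodes the non-erythroid alpha spectrin that lines the inner face of the plasma membrane. It showed the smallest difference, with 3 peaks per input list against 3 and 2 per pull-down list. The shares were 1.02 and 0.71 against 0.31 and 0.18 per 10000, so the groups did not overlap. The ratio of summed shares was 3.47, with a counting interval of 0.88 to 14.4. SPTAN1 had no site confined to both inputs. Its 5′-most site, chr9:131314867-131314951 on the plus strand, was listed in both inputs (scores of 36 and 61) and in pull-down replicate 2 (26). The site chr9:131361879-131362088 was listed in both pull-downs (28 and 15) and in no input.

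**Figure D3:**
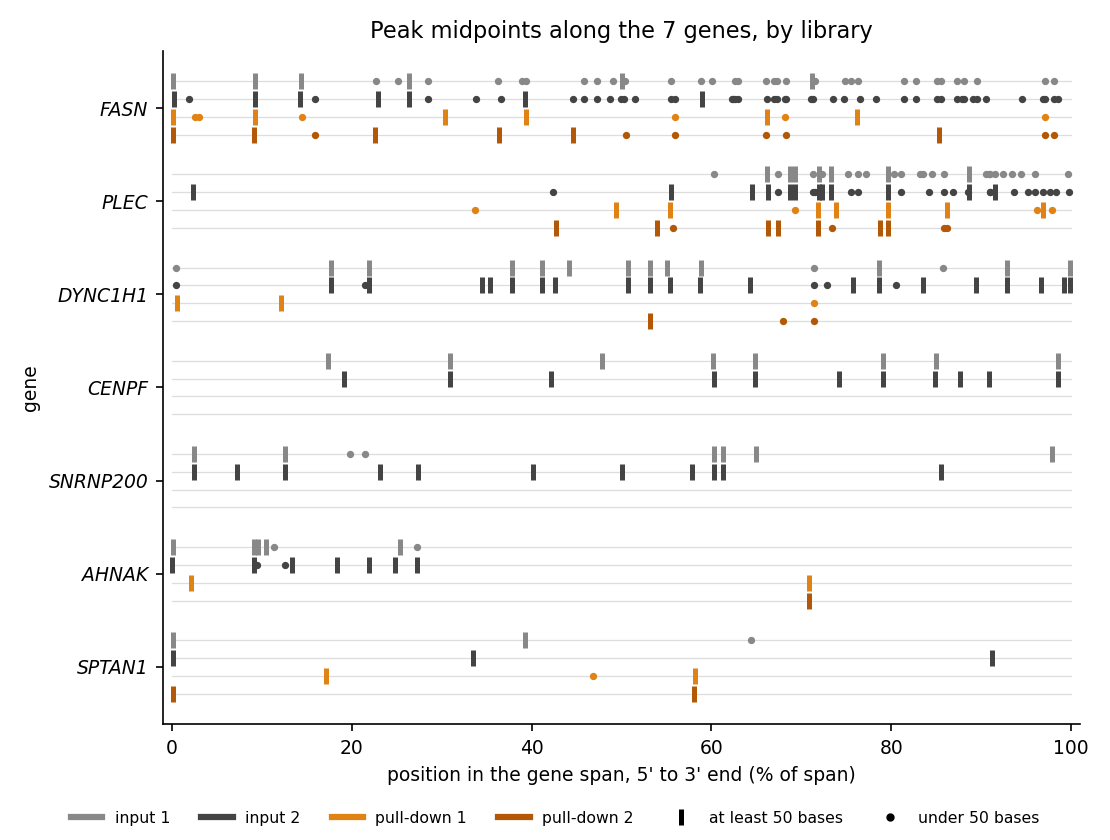
Peak midpoints along each gene (x axis, percent of the span from the 5′ end), with 4 lines per gene for the 4 libraries; upright marks are peaks of at least 50 bases and dots are narrower peaks. Input peaks of DYNC1H1, CENPF and SNRNP200 run along the gene, those of AHNAK stop at 27.3% and those of PLEC gather beyond the midpoint; CENPF and SNRNP200 have empty pull-down lines.

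The 7 genes fell into different kinds by peak width. In CENPF, SNRNP200, AHNAK, DYNC1H1 and SPTAN1 together, 80.5% and 88.1% of the input peaks were at least 50 bases wide, with a median width of 97 bases in each input. In FASN and PLEC this share was 19.4% and 22.9%, with medians of 27 and 21 bases. The complete input lists held 22.1% and 26.6% wide peaks. FASN and PLEC together supplied 62.0% and 58.5% of the input member peaks, against 74.2% and 80.0% of the pull-down ones. This grouping was made after the widths had been seen and carries no test.

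**Figure D4:**
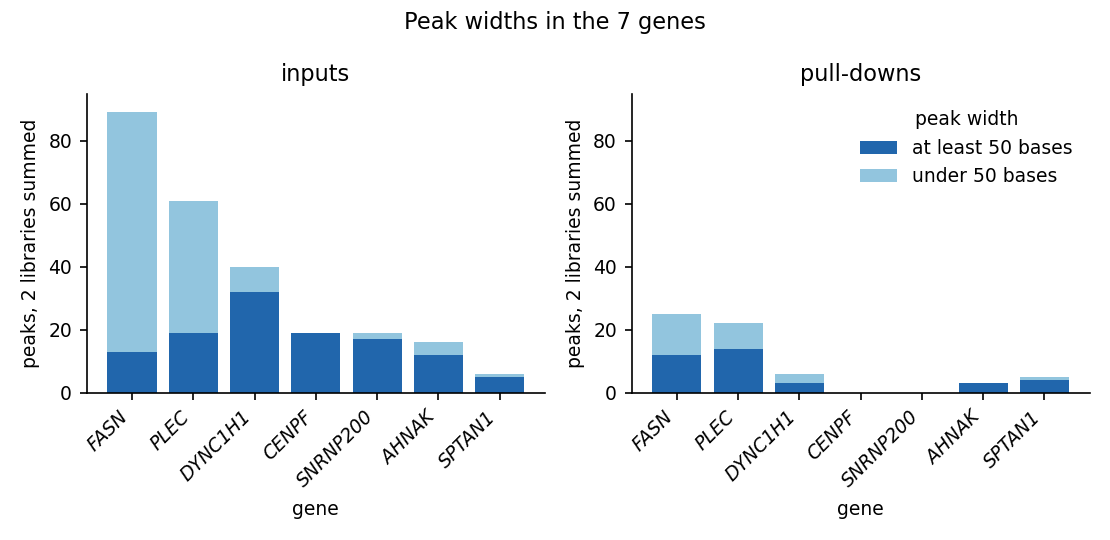
Number of peaks in each gene (y axis, 2 libraries summed) in the inputs (left) and pull-downs (right), split by width. Narrow peaks are 76 of 89 in the FASN inputs and 0 of 19 in the CENPF inputs; the FASN pull-downs hold 12 wide and 13 narrow peaks.

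Merging peaks that overlapped by at least 1 base on the same strand gave 194 sites in the 7 genes. Of these, 50 (25.8%) were in both inputs and no pull-down, 95 (49.0%) in 1 input alone, 8 (4.12%) in all 4 libraries, 3 (1.55%) in both pull-downs and no input, and 18 (9.28%) in 1 pull-down alone. Among the 161463 sites elsewhere these shares were 2.78%, 7.99%, 10.3%, 22.2% and 47.8%. Of the sites listed in both inputs, 50 of 73 (68.5%) in the genes had no pull-down peak, against 19.9% over all such sites. Among wide sites it was 31 of 48 against 39.3%, and among narrow sites 19 of 25 against 10.8%. All 19 of these narrow sites lay in FASN and PLEC. There, 4 of 18 and 4 of 9 sites in both inputs without a pull-down peak were wide. The 7 genes together held 1.1% of the 4545 sites in both inputs without a pull-down peak. When overlap of at least 50% of both peaks was required, 43 sites were in both inputs alone and 1 in both pull-downs alone.

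**Figure D5:**
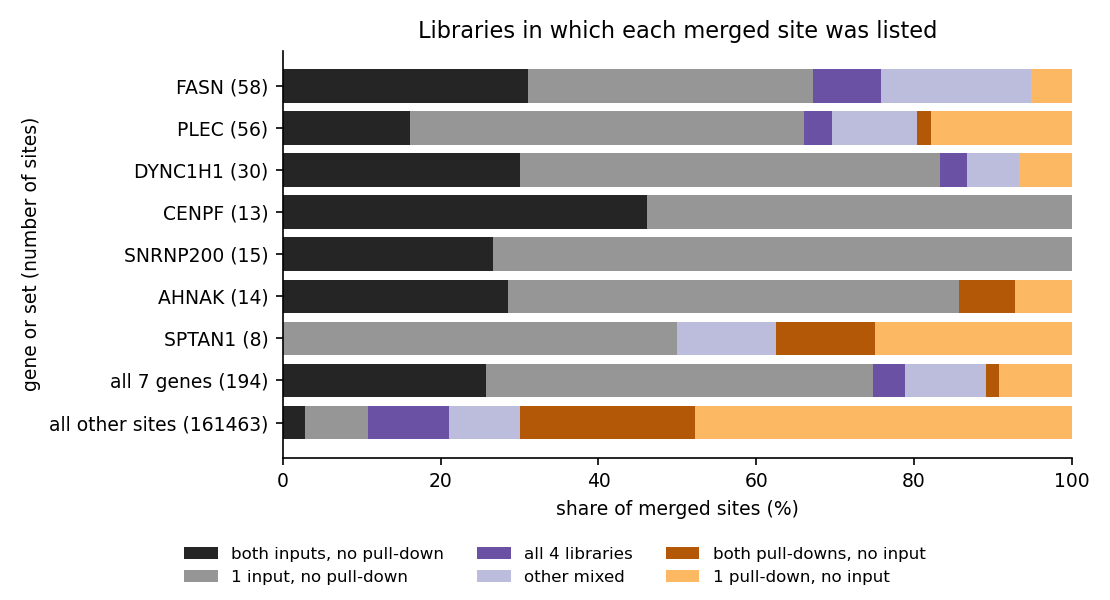
Share of merged sites (x axis, percent) by the libraries in which they were listed, for each gene, for the 7 genes and for all other sites (number of sites in brackets). Dark and light grey, for sites of the inputs only, cover all sites of CENPF and SNRNP200 and little of the bar for all other sites, which is mostly orange, for sites of the pull-downs only.

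Input peaks of the 7 genes scored low in their lists. Their median scores were 14 and 13.5, against 17 in each complete input list. In each input 52.8% scored 10 to 14, the lowest values listed, against 39.5% and 41.2% of all peaks. Pull-down peaks of the genes scored low too, with medians of 11 and 13 against 19 in each complete list. Of these, 71.0% and 56.7% scored 10 to 14, against 34.0% and 35.2% of all pull-down peaks. Input peaks of like score elsewhere were set beside the input peaks of the genes, split by width at scores of 10 to 14 only. The genes were selected on pull-down against input counts. Low overlap with the pull-downs, here and for the sites above, is therefore part of that choice and is only described. Of wide peaks scoring 10 to 14, 0 of 23 and 0 of 29 in the genes overlapped a pull-down peak. By counting error alone, this allows up to 13.0% and 10.3%. Among all other wide peaks of those scores it was 26.3% and 27.1%. Of narrow peaks scoring 10 to 14, 5 of 34 and 9 of 46 overlapped one, against 79.2% and 75.4% elsewhere. At scores of at least 15, all widths together, the shares were 39.2% and 26.9% in the genes and 75.8% and 73.4% elsewhere. Widths were not matched there. At all scores, 42.6% and 50.0% of the input peaks in the genes were wide, against 22.1% and 26.6% of the complete lists. Elsewhere, wide input peaks overlapped a pull-down peak less often (38.0% and 36.5%) than narrow ones (80.6% and 79.2%).

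Input peaks of these genes were looked up in the other input. This measure uses no pull-down peaks, but input counts were part of the choice of the genes, so it is not free of that choice. Of the member peaks, 65.7% of replicate 1 and 51.4% of replicate 2 overlapped a peak of the other input, against 77.7% and 54.1% of all other peaks. Among wide peaks these shares were 80.4% and 56.3% in the genes and 72.0% and 43.9% elsewhere. Narrow peaks went the other way, with 54.8% and 46.5% in the genes and 79.4% and 57.8% elsewhere. Of the pull-down peaks in the genes, 12 of 31 and 12 of 30 overlapped the other pull-down, against 65.6% and 56.7% elsewhere. An input peak was overlapped by 48.4% and 73.3% of them, against 29.9% and 26.6% of other pull-down peaks. FASN alone supplied 9 of the 15 overlapping peaks of pull-down replicate 1 and 13 of the 22 of replicate 2.

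The surroundings of the genes were set beside them, using stretches of the same length on either side and the same strand. Other genes in these flanks were not left out. The flanks of all 7 genes took 7.15 and 9.47 per 10000 input peaks, as against 1.77 and 1.89 per 10000 pull-down peaks, a log2 ratio of -2.16 against -3.56 within the genes. The flanks of CENPF and of SNRNP200 each held 1 peak per input, where the genes held 8 and 11. In each pull-down the flanks of CENPF held 1 peak and those of SNRNP200 held 0. The flanks of AHNAK held 9 and 20 input peaks, of 21 and 40 in all flanks. This was more than the gene itself held, against 5 per pull-down. Around DYNC1H1 the flanks held 0 and 3 input peaks against 6 and 5 pull-down peaks, a log2 ratio of 0.62 beside -4.06 in the gene. Around FASN they held 6 and 5 input peaks against 0 and 1, a log2 ratio of -4.34 beside -3.33 in the gene. The flanks of SPTAN1 had -1.84 beside -1.80, and those of PLEC, with 0 and 3 input peaks against 2 and 3, had -0.39 beside -2.98. The rest of each gene's chromosome had log2 ratios between -0.32 (chromosome 17, FASN) and 0.16 (chromosome 2, SNRNP200).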

How the data were processed

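Each sample has 1 deposited peak list, made by the authors per sample, with positions in bases and a whole-number score; the meaning of the score is not stated, and it was used only to rank or filter within a list. STAR, featureCounts and GRCh38 are named, without versions, per the submitters' processing notes; which caller and threshold gave the peaks is not given in the sources used here. Positions fit GRCh37 gene spans and are given as such, 1-based. Peaks in 7 spans were counted with pandas 2.3.3 and divided by the list length. Log2 ratios used 0.5 added to each count. Intervals are exact (Clopper-Pearson) and, like the floor of 3 peaks, cover counting error only. They treat peaks as separate draws and do not allow for the choice of the genes. The members and all comparisons were chosen with earlier results of these data known, and no p-value was computed: with 2 against 2 samples no single value could pass a permutation test. The named sites were, per gene, the 2 best-ranked in both inputs without a pull-down peak, up to 2 in both pull-downs without an input peak, and the best-ranked in all 4 libraries. Site merging was tested on simulated data. No GRCh37 genome or exon annotation was used, so sites were not assigned to exons and no sequences are shown.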

Additional observations from a re-analysis of the deposited data

Results flagged for a closer look

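Peaks opposite to the gene strand, which the gene counts leave out, made up a larger share of the pull-down lists than of the input lists. In the 7 spans they numbered 1 and 2 in input libraries against 5 and 9 in pull-down libraries, or 0.34 and 0.47 against 0.52 and 0.81 per 10000, with a pull-down mean of 0.665 against 0.407. With 1 and 2 input peaks, the input shares are loosely set. Both pull-down shares lay above both input shares in 12.1% of the 100 kb windows, and in 20.3% with the higher minimum. The opposite peaks were 7 to 23 bases wide, and narrow peaks of the genome were 0.92-fold as frequent in the inputs. The site opposite DYNC1H1 at chr14:102475866-102475876 scored 51 and 48 in the pull-downs and was in no input. RefSeq (GRCh38.p14) lists the lncRNA LOC107984661 at DYNC1H1 and DYNC2I2 at SPTAN1 on the opposite strand; the strand of genes overlapping CENPF, PLEC and FASN was not analysed here. Whether these peaks lie in them was not tested. The difference was not tested.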

How the results depend on the processing

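No log2 ratio of a single gene was above 0 in the 15 alternatives, but where a gene has 0 or 1 peak per library the added 0.5 and the list lengths set the sign, as with narrow peaks in CENPF (0 in all 4 libraries) and SPTAN1, both at -1.67. Single genes ranged from -5.42 (FASN) to -2.20 (SPTAN1) in lists cut by score to equal length. With wide peaks they ranged from -5.40 (CENPF) to -1.20 (FASN), so their order depends on the setting. For the 7 genes together the ratio of -3.56 became -5.03 in lists of equal length, -3.90 in the better-scoring 50%, -4.04 with narrow peaks, -2.74 with wide peaks, -3.28 with both strands counted and -3.34 with bases covered; the cause was not tested. Leaving out each library in turn gave -3.69 to -3.43, with 7 genes lower each time. The number of genes lower in both pull-downs was 4 with narrow peaks, where CENPF had none in any library. The replicate block, the mean of same-numbered ratios, gave -3.56 and 7 genes, equal by construction; deviations of same-numbered samples correlated at 0.10 over 3226 windows, and with 2 pairs the numbers are not shown to pair the samples. With a window minimum of 1 peak per 10000, 70.9% of 597 windows were lower, and 4.52%, 7.87% and 40.9% lay at or below the genes' 2 medians and SPTAN1, against 1.98%, 3.38% and 18.7%. Peak lists without reads limit every value: genes with 0 to 3 pull-down peaks have only bounds or wide intervals.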
